A study of Homo sapiens with 42 samples.

Results

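The comparison described here is that of Hep3B cells, a human hepatoma line, kept for 16 h in CM with Hep3B cells kept for 16 h in NCM. The labels describe CM as enriched in pro-inflammatory cytokines and NCM as the control, and do not name the cytokines or their doses. All CM and NCM arrays labelled with 16 h were taken, which are 6 of the 42 arrays of the series, 3 from CM and 3 from NCM. Each of the experiments S1, S2 and S3 gave 1 CM and 1 NCM culture from 1 batch of trypsinized cells, so there are 3 pairs. The other 36 arrays, from T0 to 6 h, entered the fit and served as the background in time. All cultures are of 1 cell line without other liver cells, and no allele or agent beyond the medium is given.

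Inflammatory cytokines turn on the acute phase response of hepatocytes, in which the liver secretes more of some plasma proteins, among them complement factors, orosomucoid, haptoglobin and fibrinogen, and less of others, such as albumin and transthyretin. Interleukin-6 acts through the transcription factor STAT3, which binds GAS elements, while interleukin-1 and TNF act through NF-kappaB. Hep3B and other hepatoma lines are widely used as models of this response.

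The sequences upstream of CFB and ORM1 are shown because these genes had the largest changes of the acute phase genes. Both are the 250 bases before the gene's start, from RefSeq on GRCh38.p14, written 5′ to 3′ on the strand of the gene. The CFB window is chr6:31945845-31946094 and the ORM1 window is chr9:114322848-114323097, both on the plus strand. Capitals mark matches to the motifs searched on both strands.
CFB: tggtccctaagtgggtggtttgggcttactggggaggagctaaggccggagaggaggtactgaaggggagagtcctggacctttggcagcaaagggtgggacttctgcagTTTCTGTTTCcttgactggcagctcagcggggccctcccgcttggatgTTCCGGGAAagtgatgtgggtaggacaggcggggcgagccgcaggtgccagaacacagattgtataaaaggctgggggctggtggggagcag
ORM1: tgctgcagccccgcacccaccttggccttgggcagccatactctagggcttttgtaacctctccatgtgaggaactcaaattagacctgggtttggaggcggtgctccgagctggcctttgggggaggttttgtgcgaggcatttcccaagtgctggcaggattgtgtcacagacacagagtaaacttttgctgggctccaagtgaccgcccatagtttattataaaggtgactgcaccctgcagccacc
The CFB window held 1 match to the GAS motif TTCNNNGAA, a motif that reads the same on both strands. The match was TTCCGGGAA at 92 to 84 bases before the start. The window also held 1 match to the ISRE core on the minus strand, read as TTTCTGTTTC on the plus strand at 140 to 131 bases. The ORM1 window held no match to these motifs, to the NF-kappaB consensus or to the C/EBP motif TTGCNNAA. The windows of IRAK2 and NDUFB7, not shown, were searched as well. That of IRAK2 held no match, and that of NDUFB7 held 1, to the NF-kappaB consensus on the minus strand, at 171 to 162 bases. Of 35116 promoter windows of this length, 6.57% held the GAS motif, 3.02% the ISRE core, 5.21% the NF-kappaB consensus and 9.05% the C/EBP motif. The matches in CFB do not overlap, and a match is a description of the letters and no evidence of binding.

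Each array holds 13824 probes, and 7336 of them name 1 gene, for 5631 genes in all. The arrays of a 16 h pair correlated at 0.918 to 0.931 over the probes. The S1 arrays correlated with those of S2 and S3 at 0.762 to 0.813, against 0.856 to 0.869 between S2 and S3. The markers of the hepatocyte list were measured in 14 of 14 genes, and ALB, AFP and TF lay above the 90th percentile of the probes on all 6 arrays. Each other hepatocyte marker was below that percentile on at least 1 array, with APOB at the 24.5th to 81.6th and TTR at the 40.5th to 71.8th. No marker of macrophages, lymphocytes, endothelial cells, stellate cells or red cells was above the 90th percentile on all 6 arrays. The endothelial marker ENG came close, at the 89.0th to 94.6th. With 3 arrays a group, their number sets how precise the values are.

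CFB, the gene of complement factor B, the protease of the alternative complement pathway, rose in CM at 16 h. Its log2 intensity (probe 2983) was 0.22, 0.70 and -0.32 in the CM arrays of S1, S2 and S3, against -0.55, -1.11 and -2.16 in the NCM arrays. A value of 0 on this scale is an intensity of 1, near the mean of an array. The lowest CM array lay above the highest NCM array, as on 2.48% of all probes. The S1 pair had the smallest difference, 0.77, against 1.80 in S2 and 1.84 in S3. The mean was 0.20 ± 0.51 in CM and -1.27 ± 0.82 in NCM (SD, n = 3 each), a 2.77-fold higher intensity in CM. The change, CM minus NCM, was 1.47 (SE 0.22), and its adjusted p in limma with Benjamini-Hochberg adjustment was 0.0177, with the pairs as a block. Both use 1 moderated spread shared by the pairs of all 7 times, not that of the 3 pairs alone. CFB was the 1 probe of the 13824 that passed, or 0.00723% of them, and 658 probes (4.76%) had an unadjusted p under 0.05, against 0 called and 700 (5.06%) for the media at T0. The adjusted p was 0.750 without the block, 0.268 on the values as deposited, 0.246 with median centring and 0.888 when the 6 arrays of 16 h were fitted alone. It was 0.313 without the pair of S2 and 0.211 without that of S3.

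The other probes of CFB gave smaller values. Probe 7389 had -1.33, -0.87 and -0.92 in CM, against -2.07, -1.37 and -1.09 in NCM, a change of 0.47. Probe 10579 had 0.00, -1.07 and -1.05 in CM, against -0.71, -1.11 and -1.19 in NCM, a change of 0.30 that came mostly from S1. Both probes were higher in CM in 3 of 3 pairs, as were 13.3% of all probes, but their groups overlapped and neither passed. The mean over the CFB probes had a change of 0.74 (adjusted p = 0.351 in limma).

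ORM1, which encodes the plasma protein orosomucoid, had similar values on its 3 probes, and none of them passed. Probe 2192 had 1.39, 0.71 and 1.50 in CM, against -0.17, -0.28 and 0.36 in NCM. Probe 7977 had 0.92, 0.60 and 0.94 in CM, against -0.21, -0.79 and -0.01 in NCM. Probe 9589 had 0.78, 0.65 and 0.77 in CM, against -0.94, -0.91 and -0.10 in NCM. On each of the 3 probes every CM array lay above every NCM array, as it did on 2.48% of all probes. The changes were 1.23 (SE 0.23, adjusted p = 0.103 in limma), 1.16 (SE 0.22, adjusted p = 0.103) and 1.38 (SE 0.34, adjusted p = 0.519). When the probes of each gene were averaged, ORM1 had a change of 1.26 and was the 1 gene called (adjusted p = 0.00686 in limma). The sequence of these probes was not used here, so signal from ORM2, a near-identical neighbouring gene, cannot be told apart from that of ORM1.

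**Figure D1:**
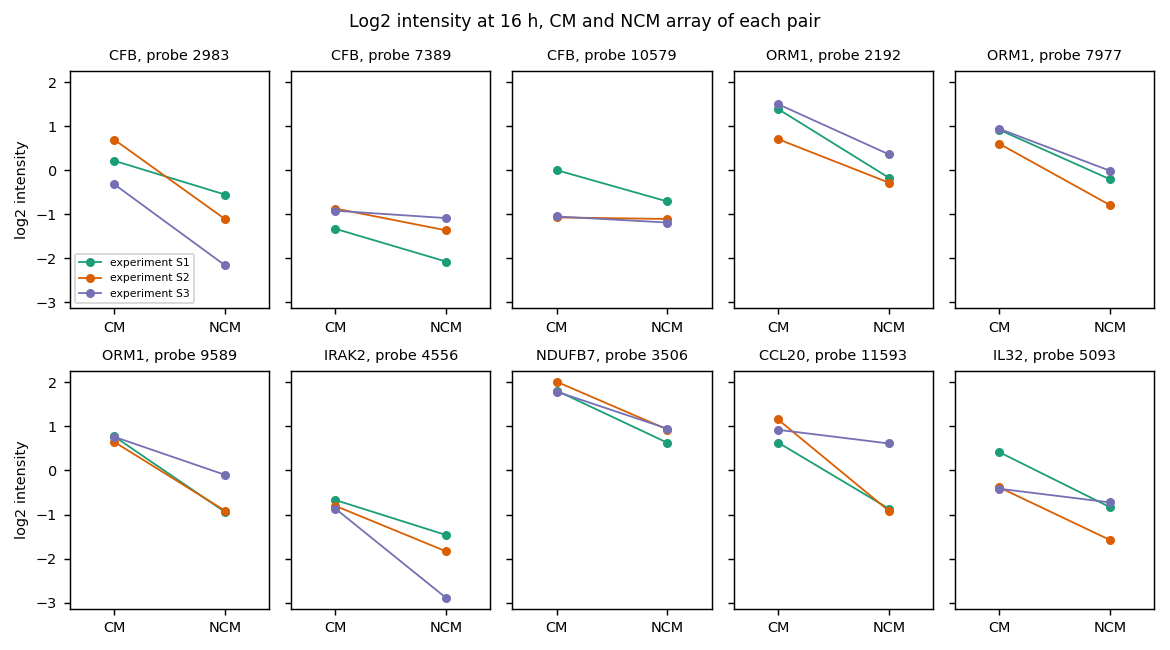
Log2 intensity at 16 h of the probes of CFB and ORM1 and of the brightest probes of IRAK2, NDUFB7, CCL20 and IL32, in the CM array (left) and the NCM array (right) of each experiment, joined by a line per pair. Every line runs higher at CM, and the groups do not overlap for CFB probe 2983, the ORM1 probes, IRAK2, NDUFB7, CCL20 and IL32.

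IRAK2, a kinase that carries the signal of the interleukin-1 receptor, had -0.67, -0.80 and -0.87 in CM, against -1.46, -1.84 and -2.89 in NCM. The CM arrays were close to each other, and the NCM array of S3 was the lowest of the 6. The change was 1.28 (SE 0.26, adjusted p = 0.139 in limma), with 0.22 on its other probe. NDUFB7, a subunit of respiratory chain complex I, had 1.81, 2.01 and 1.79 in CM, against 0.63, 0.93 and 0.95 in NCM. Its groups did not overlap, as on 2.48% of all probes, and its pair differences had the small SD of 0.18. The change was 1.04 (SE 0.17, adjusted p = 0.0540 in limma), and the other NDUFB7 probe had 0.61 with 2 of 3 pairs higher. TMSB10, an actin-binding thymosin, had 2.27, 2.48 and 2.15 in CM, against 1.19, 1.95 and 0.95 in NCM, a change of 0.93 (adjusted p = 0.139 in limma). None of the 3 genes passed.

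CCL20, a chemokine that draws lymphocytes and dendritic cells, had 0.64, 1.16 and 0.92 in CM, against -0.87, -0.91 and 0.61 in NCM. The CM arrays were close to each other, and the NCM array of S3 stood well above those of S1 and S2. The change was 1.29 (SE 0.36, adjusted p = 0.847 in limma). IL32, a cytokine known for its induction by interleukin-1 and TNF, had 0.42, -0.38 and -0.41 in CM, against -0.83, -1.58 and -0.72 in NCM, and a change of 0.92 (SE 0.23, adjusted p = 0.581). PSME1, an activator subunit of the immunoproteasome, had 0.05, -0.39 and 0.02 in CM, against -0.71, -1.72 and -0.76 in NCM, and a change of 0.95 (SE 0.23, adjusted p = 0.510). The groups of CCL20, IL32 and PSME1 did not overlap, as on 2.48% of all probes. The pair of S3 gave the smallest difference of IL32 and CCL20.

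The other genes of the 15 with the smallest p among those higher in 3 of 3 pairs were TNC, MRPS2, PSMC3, SLC10A2, LAPTM5, ZBTB5 and TOE1, with changes of 0.75 to 1.06 and adjusted p values in limma of 0.162 to 0.755. TNC, the matrix protein tenascin C, had -1.97, -0.73 and -0.84 in CM, against -3.62, -1.82 and -1.28 in NCM. The NCM array of S1 stood at the floor, so the change of 1.06 leans on a value that was set and not measured. PSMC3, an ATPase of the proteasome, had 0.91, and SLC10A2, a bile acid transporter, had 0.88. MRPS2, a protein of the mitochondrial ribosome, had 0.88, and LAPTM5, a lysosomal membrane protein, had 0.78 with pair differences of 0.75, 0.86 and 0.73.

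Of all genes 163 (2.89%) had an unadjusted p under 0.05 and a positive change and 101 (1.79%) a negative one, and no gene fell. Among the 15 with the smallest p of those lower in 3 of 3 pairs, FBXO30, a ubiquitin ligase subunit, had -1.51, -1.57 and -1.56 in CM, against -0.74, -0.99 and -0.90 in NCM. Its change was -0.67 (SE 0.17, adjusted p = 0.645 in limma), with no overlap of the groups, as on 2.76% of all probes in this direction. When the mean deviation of neighbouring probes was taken from each value, which is called neighbour centring here, its change was -0.36, and USP24, ASF1A, GLOD4, TUG1 and RGS1 had -0.33 to -0.46. ADO, a thiol dioxygenase, had -1.14, -1.50 and -1.71 in CM, against -0.60, -0.87 and -0.79 in NCM, a change of -0.70. RDH12, a retinol dehydrogenase, had the largest negative change of the 15, -1.12, with its CM array of S3 at the floor, as was the CM array of S1 of USP24. TUG1, a long noncoding RNA, had -0.72 on its brightest probe and 0.39 on the other, so its probes differ in sign. DNAJB9, a chaperone of the endoplasmic reticulum, had -0.60, and the other 10 genes, WDR18, ASF1A, RSRC1, USP24, IGSF23, GLOD4, WSCD2, ARSG, RGS1 and SLC30A9, had -0.70 to -0.91 at an adjusted p of 0.942 in limma.

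**Figure D2:**
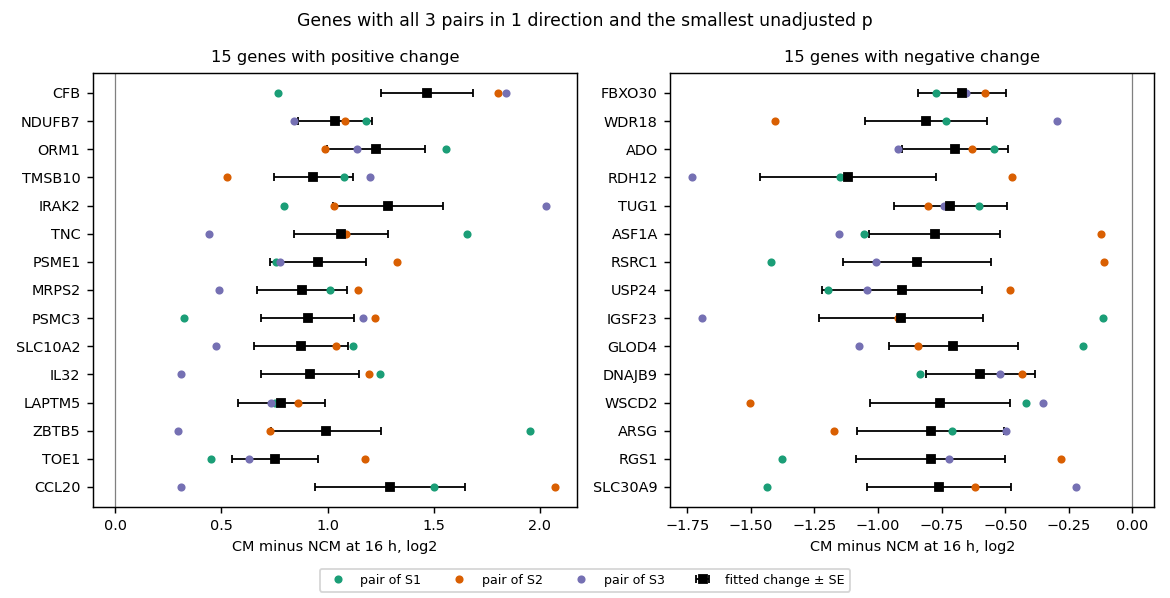
Change at 16 h, CM minus NCM on the log2 scale, of the 15 genes with the smallest p among those higher in 3 of 3 pairs (left) and among those lower in 3 of 3 pairs (right). Squares are the fitted change ± SE and coloured points are the pairs of S1, S2 and S3. CFB, at 1.47, is the 1 gene past the threshold, and the pairs of CCL20 spread from 0.31 to 2.07.

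Over the 13824 probes the fitted change had an SD of 0.30. In size, 10 genes had a change of 1 or more and 5 a change of -1 or less. No gene had 1 or more in all 3 pairs. At least 0.5 in all 3 pairs was reached by 19 genes that were higher and 6 that were lower. The pair differences of S1 and S2 correlated at 0.18 across the probes, those of S1 and S3 at -0.05 and those of S2 and S3 at -0.06, a description over probes that share their arrays. Of the 5631 genes, 820 (14.6%) were higher in 3 of 3 pairs and 707 (12.6%) were lower. The counts of 3 of 3 pairs in the gene lists below are to be read beside these shares.

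Among acute phase proteins known to rise, 20 of the 31 listed genes were measured. CFB rose, 0 fell and the other 19 did not pass. The median change was 0.17, against 0.02 over all genes, and 13 of the 20 were above 0, against 2984 of 5631 genes. The pairs differed, with medians of 0.03 in S1, 0.48 in S2 and 0.09 in S3. CFB, ORM1, ITIH4, HP, FGB, ITIH3 and FGG were higher in 3 of 3 pairs, and HPX, the heme-binding hemopexin, was lower in 3 of 3, each on its brightest probe.

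ITIH4, a heavy chain of the inter-alpha-trypsin inhibitor family, had 0.13, -0.42 and -0.57 in CM, against -0.78, -1.15 and -0.78 in NCM, a change of 0.62. Its groups did not overlap, as on 2.48% of all probes. Its other probes had 0.89 and -0.90, the second lower in CM in 3 of 3 pairs. FGG, the gamma chain of fibrinogen, had 0.05, -0.06 and 0.09 in CM, against -0.84, -0.87 and -0.06 in NCM, and its probes had 0.62, 0.47 and 0.82, or 0.40, 0.41 and 0.50 with neighbour centring. FGB, the beta chain, had 0.56 and 0.03 on its probes, and FGA, the alpha chain, had -0.02, 0.33, -0.02 and 0.22. HP, the hemoglobin-binding haptoglobin, had 0.54 and 0.47, and HPR, which is nearly identical to HP in sequence, had 0.37 and 0.89, so these cannot be told apart here.

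Other members of the list had small or opposed values. CRP, the classical acute phase marker, had 0.91, 0.99 and 0.62 in CM, against 0.98, 1.19 and 0.58 in NCM, a change of -0.08, with 0.14 and 0.64 on its other probes. SERPINA3, an antichymotrypsin, had 0.27, 0.28, -0.25 and 0.52, and C3, the central complement component, had -0.20 and 0.85 on its probes. PTX3 had -0.69. HPX had -0.61, -0.84 and -1.29 in CM, against -0.47, -0.37 and -0.47 in NCM, a change of -0.48 (-0.29 with neighbour centring), with 0.16 and -0.16 on its other probes.

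Of the acute phase proteins that fall, 20 of 22 were measured, 0 passed in limma in either direction, 0 had an unadjusted p under 0.05, and the median change was -0.04, with 14 below 0. In 3 of 3 pairs 4 genes were higher, HPR, SERPINA6, RBP4 and SERPINC1, and 2 were lower, AFP and TTR. HPR, at 0.37 the highest of the list, cannot be told apart here from HP, which is listed among the proteins that rise. Its value is therefore not read as that of a protein that falls. ALB, serum albumin, had 1.92, 1.42 and 1.59 in CM, against 1.84, 1.51 and 1.69 in NCM, a change of -0.04, and its other 5 probes had -0.67 to 0.05. AFP, alpha-fetoprotein, had 2.48, 1.94 and 2.20 in CM, against 2.89, 2.28 and 2.38 in NCM. Its brightest probe had -0.31 (-0.07 with neighbour centring), while its other probes had 0.50 and -0.12. TTR, transthyretin, had -0.30, with 5 other probes at -0.05 to 0.43. TF and AHSG had -0.28 and -0.08, and both had other probes of either sign.

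The complement list had 24 of 37 genes measured, of which CFB rose and 0 fell, with a median of 0.06. Coagulation and fibrinolysis had 24 of 34, 0 called in limma (2 at an unadjusted p under 0.05) and a median of -0.03. In 3 of 3 pairs 0 of its genes were lower, against 12.6% of all genes, and 7 were higher, against 14.6%. These were PLAUR, the urokinase receptor, at 0.60 (0.24 with neighbour centring), and FGB, FGG, F2, SERPINC1, F11 and KNG1 at 0.16 to 0.62 on their brightest probes, while F2, SERPINC1 and KNG1 had other probes of either sign and the other F11 probes had -0.01 and -0.27. In the signalling lists no gene passed in limma. An unadjusted p under 0.05 was reached by 2 genes of interleukin-1 and TNF signalling, both higher, by 1 higher and 1 lower of NF-kappaB, and by 1 of interleukin-6 and STAT3. Over all genes 2.89% reached it as higher and 1.79% as lower. Interleukin-1 and TNF signalling had 12 of 25 measured and a median of 0.04, with IRAK2 at 1.28, IL1RAP, the co-receptor of interleukin-1, at 0.73 and TAB1 at 0.77, against TAB2 at -0.40 and TRAF6 at -0.25. With neighbour centring TAB1 had 0.32 and TRAF6 0.22. NF-kappaB pathway and targets had 15 of 27 measured and a median of 0.04, with NFKBIA, the inhibitor and target of NF-kappaB, at 0.01 and TRAF1 at 0.62 (0.41 with neighbour centring). NFKBIA had -0.29 on the values as deposited, -0.21 with median centring and -0.12 with neighbour centring, so no direction is given for it. Interleukin-6 and STAT3 signalling had 23 of 32 measured and a median of -0.12, with MCL1, a survival protein, at 0.58 with 2 of 3 pairs higher.

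The interferon response list, 21 of 39 genes measured, had 0 called in limma, 3 at an unadjusted p under 0.05, all higher, the lowest median of the 31 lists, -0.20, and 14 genes below 0. It held genes of both signs in 3 of 3 pairs. IFI27, IFITM3, GBP1 and IRF9 were higher, with 1.04, 0.69, 0.50 and 0.52, and IFI35, IFIT3, IFNAR1, BST2, IRF2 and IFI44 were lower, with -0.23 to -0.43, of which IFI44 had 0.07 and IFI35 -0.17 with neighbour centring. The median was -0.31 on the values as deposited, -0.04 with neighbour centring and -0.11 with the probes of a gene averaged. IFITM3, a membrane protein that restricts virus entry, had 0.77, 0.23 and 0.79 in CM, against -0.24, -0.48 and 0.45 in NCM, with changes of 0.69, 0.75 and 0.86 on its 3 probes, or 0.40, 0.66 and 0.29 with neighbour centring. GBP1, a guanylate-binding protein, had 0.50 on its brightest probe and -0.72 on the other. At T0 the brightest probes had 0.73 for IFI27, -0.30 for IFITM3 and -0.18 for GBP1. For IFI27 the change at 16 h exceeded that at T0 by 0.32 (SE 0.52).

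Antigen presentation and immunoproteasome, 19 of 29 measured, had 0 called in limma and a median of 0.14. At an unadjusted p under 0.05 it had 3 genes, PSME1 at 0.95, PSMB10, an immunoproteasome subunit, at 0.60 and CTSS, the protease cathepsin S, at 0.52, each higher in 3 of 3 pairs. The other CTSS probe had -0.03 with 1 of 3 pairs higher. The median of the list was 0.01 with neighbour centring and on the values as deposited. Chemokines and cytokines, 27 of 39 measured, had 0 called and a median of -0.08, with 4 genes higher and 5 lower in 3 of 3 pairs. The higher ones were CCL20 and IL32, the 2 genes at an unadjusted p under 0.05, with MIF at 0.43 and CCL2 at 0.31. The lower ones were CXCL9, CXCL5, CXCL12, IL15 and CXCL8, with -0.17 to -0.48. CXCL5 had -0.36 on its brightest probe (-0.02 with neighbour centring) and 0.73 on the other, and CXCL8 had -0.17, 0.35 and -0.08 on its probes. The constitutive proteasome, 27 of 35 measured, had 0 called, 2 at an unadjusted p under 0.05 and a median of 0.04, with 4 genes higher and 6 lower in 3 of 3 pairs. PSMC3 had 0.91, and PSMC2 had -0.50 on its brightest probe (-0.16 with neighbour centring), with 0.27 and -0.25 on the others.

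**Figure D3:**
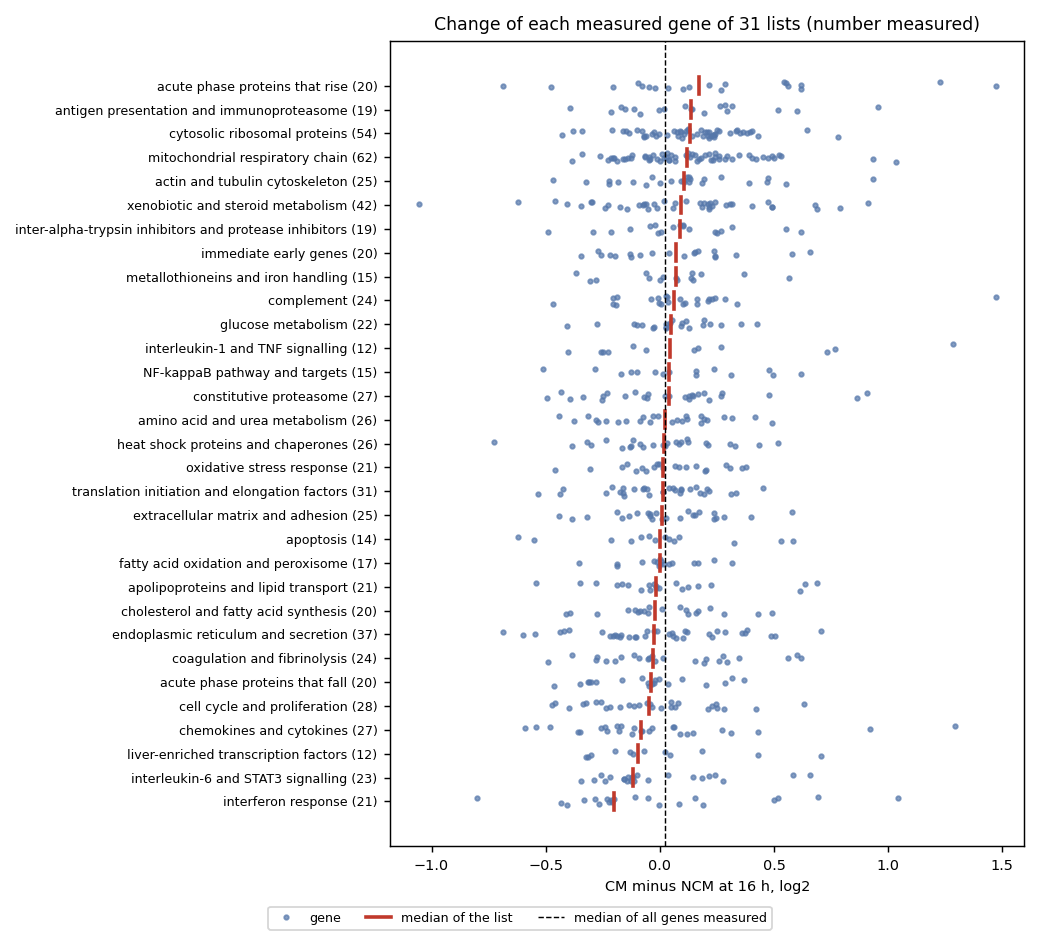
Change at 16 h, CM minus NCM on the log2 scale, of each measured gene (points) of 31 gene lists, with the median of each list in red and that of all genes, 0.02, as a dashed line. List medians lie between -0.20 (interferon response) and 0.17 (acute phase proteins that rise), and most of the largest changes are single genes such as CFB, ORM1, IRAK2 and CCL20.

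Lists of the basic machinery had 0 called in limma, and their medians were higher in S1 than in the other pairs. At an unadjusted p under 0.05 the ribosomal list had 1 gene, the respiratory chain 3 and the cytoskeleton 2, all higher. The cytosolic ribosomal proteins, 54 of 79 measured, had a median of 0.13, made of 0.61 in S1, -0.03 in S2 and -0.23 in S3, and of -0.12 without S1. RPS3 had 0.78 and RPL22 0.64. The mitochondrial respiratory chain, 62 of 78 measured, had a median of 0.12, with pair medians of 0.31, 0.09 and -0.10, and -0.02 without S1. The 3 genes at an unadjusted p under 0.05 were NDUFB7, NDUFS6 at 0.93 and NDUFB1 at 0.47. With neighbour centring NDUFB1 had 0.08, and the second probe of NDUFS6 had -0.40. The cytoskeleton list, 25 of 40 measured, had 0.11, with 0.43 in S1, 0.02 in S2 and 0.00 in S3.

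These metabolic lists also had 0 called in limma, with 4 genes higher and 1 lower of xenobiotic and steroid metabolism and 1 higher and 1 lower of lipid transport at an unadjusted p under 0.05. Of the xenobiotic and steroid metabolism genes 42 of 62 were measured, with a median of 0.09. AKR1C3, a steroid-reducing enzyme, had 0.79, ADH4, an alcohol dehydrogenase, had 0.68 with 0.91, -0.25, -0.03 and 0.35 on its other probes, and MGST1, a glutathione transferase, had 0.69 with 0.19, -0.40 and 0.58 on its other probes. With neighbour centring these brightest probes of ADH4 and MGST1 had 0.31 and 0.20. CYP3A7, the fetal liver cytochrome, had -0.62 with 1 of 3 pairs higher (-0.37 with neighbour centring), and -0.20 and 0.14 on its other probes. Of the apolipoproteins and lipid transport genes 21 of 30 were measured, with a median of -0.02, ABCA1, the cholesterol exporter, at 0.69 and VLDLR, a lipoprotein receptor, at -0.54 (-0.36 with neighbour centring). In bulk RNA, fewer cells that use a gene and less of its RNA per cell cannot be told apart.

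Many genes have more than 1 probe, and these serve as a further reading of the same RNA. The following genes were found by a scan made after the values were seen. Of 314 genes with at least 3 probes, 3 (0.955%) had every probe higher in 3 of 3 pairs, and these were CFB, ORM1 and IFITM3. None had every probe lower. Of 1128 genes with at least 2 probes, 23 (2.04%) had every probe higher and 13 (1.15%) every probe lower. Among the 23 were IRAK2, HPR, PRLR, the prolactin receptor, at 0.28 and 0.37, and SOD2, the mitochondrial superoxide dismutase, at 1.56 and 0.16. Among the 13 were HPN, the liver protease hepsin, at -0.51 and -0.64, RARS2 at -0.58 and -0.88, and IFNAR1, an interferon receptor chain, at -0.54 and -0.33 (-0.49 and -0.08 with neighbour centring). Over the 1128 genes the brightest and second probe shared their sign in 54.3%, and their changes correlated at 0.11.

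The changes of probes with neighbouring numbers were weakly correlated. They correlated at 0.28 at a distance of 1, 0.28 at 2 and 0.27 at 24, the assumed width of a grid, and at -0.0035 at a distance of 200. After neighbour centring the correlations were -0.13 at 1, 0.13 at 2 and -0.14 at 24, so the centred values are not free of such structure. Neighbour centring left CFB called (change 1.56, adjusted p = 0.0182 in limma) and gave 5 called probes (0.0362% of 13824), all higher in CM, with 737 (5.33%) at an unadjusted p under 0.05. The others were ORM1 probe 2192 (1.25, adjusted p = 0.0241) and probe 9589 (1.81, adjusted p = 0.0247), IRAK2 (1.36, adjusted p = 0.0241) and NDUFB7 (0.93, adjusted p = 0.0247). The third ORM1 probe had 1.06 (adjusted p = 0.445). CCL20 had 0.82, IL32 0.95 and TOE1 0.43, and none of them passed. CFB probe 7389 had 0.28, the second NDUFB7 probe 0.29, the brightest HP probe 0.34, and PTX3 -0.41.

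**Figure D4:**
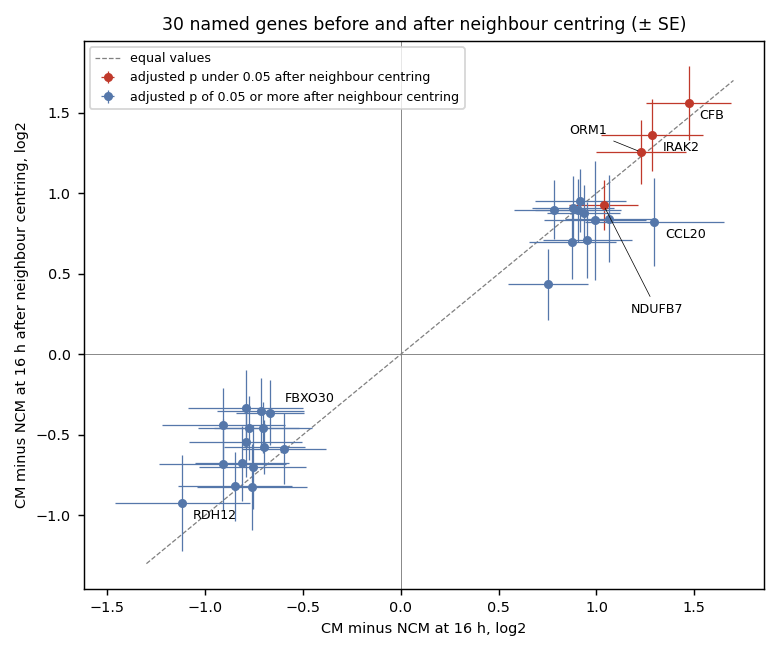
Change at 16 h, CM minus NCM on the log2 scale ± SE, of the 30 named genes before (horizontal axis) and after neighbour centring (vertical axis), with a dashed line of equal values. The red points, CFB, ORM1, IRAK2 and NDUFB7, passed after centring. The genes with negative changes lie between -0.33 and -0.92 after centring and none of them passed.

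The earlier times give the background of the 16 h values. The genes below were named by rules that used their 16 h values, so a larger change at 16 h than at other times is favoured by the choice. On probe 2983 CFB had 0.41 at T0, -0.13 at 15 min, 0.14 at 30 min, -0.11 at 1 h, -0.14 at 3 h and 0.83 at 6 h. Its change at 16 h exceeded that at T0 by 1.06 (SE 0.31, adjusted p = 0.986 in limma) and that at 6 h by 0.64 (SE 0.31, adjusted p = 1.00). The other CFB probes did not share this course. Probe 7389 had -0.22 at T0 and -0.19 at 6 h, and probe 10579 had -0.32 at T0 and 0.27 at 6 h. On probe 2192 ORM1 had 0.00 at T0 and 0.37 at 6 h, and its change at 16 h exceeded that at 6 h by 0.86 (SE 0.32). IRAK2 had -0.08 at T0, 0.05 at 3 h and -0.05 at 6 h, against 1.28 at 16 h, but the excess over 6 h, 1.33 (SE 0.37), did not pass (adjusted p = 1.00 in limma). These IRAK2 values are those of its brightest probe. The other IRAK2 probe had 0.56 at T0, 0.65 at 1 h, -0.03 at 6 h and 0.22 at 16 h, so the course differs between the probes. IL32 had 0.90 at 3 h, 1.24 at 6 h and 0.92 at 16 h, and its change at 16 h minus that at 6 h was -0.32 (SE 0.33). limma called 0 probes for 16 h minus T0, with 538 (3.89%) at an unadjusted p under 0.05, and 0 for 16 h minus 6 h, with 319 (2.31%). The comparisons with T0 and 6 h share the 16 h arrays.

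**Figure D5:**
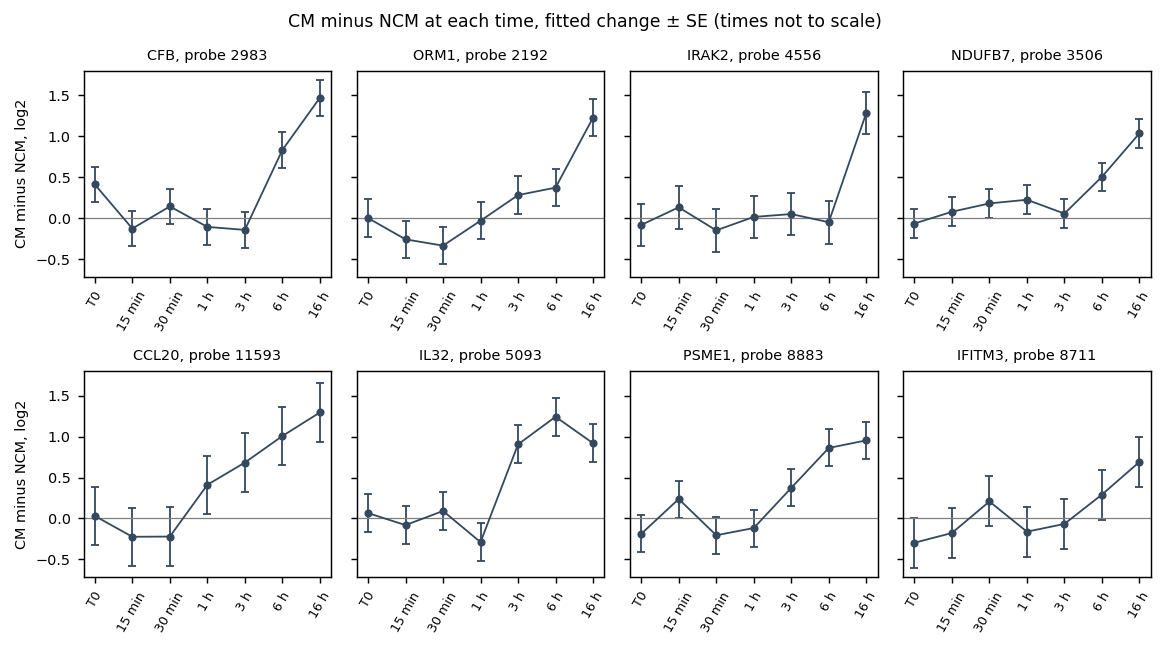
Change at each time, CM minus NCM on the log2 scale ± SE, for the brightest probe of 8 genes, with times spaced evenly and not to scale. CFB, ORM1, CCL20, PSME1 and NDUFB7 are highest at 16 h, IRAK2 lies between -0.15 and 0.13 before 16 h, and IL32 is highest at 6 h (1.24). The genes were named by rules that used their 16 h values, which favours a high value at that time.

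Markers of other cells were summed on each array. The summed linear intensity of the 6 endothelial markers measured was 4.90 to 5.33 in CM and 4.33 to 4.80 in NCM, without overlap, as on 2.48% of single probes in this direction. ENG, the brightest of the 6, had a change of 0.34 with 3 of 3 pairs higher, while 4 of the 6 were below 0, KDR (-0.45) and TEK (-0.35) were lower in 3 of 3 pairs, and the median was -0.11. The sum of the 7 macrophage markers was 3.57 to 4.39 in CM and 3.17 to 3.95 in NCM. The 14 hepatocyte markers summed to 25.2 to 27.3 in CM and 27.1 to 29.2 in NCM. The lymphocyte sums, of 5 genes, were 1.55 to 2.16 in CM and 1.50 to 2.19 in NCM. The stellate cell sums, of 9 genes, were 4.48 to 5.40 in CM and 3.94 to 5.15 in NCM, and the red cell sums, of 8 genes, were 4.95 to 6.38 in CM and 4.68 to 6.01 in NCM. The part of these shifts in the changes above was not tested.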

How the data were processed

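Total RNA of 42 Hep3B cultures was measured by array. The authors deposited 1 linear intensity per probe and array, with a mean near 1 on every array. Which array, scanner, background correction and scaling were used is not given in the sources used here. The linear values of all 42 arrays were quantile normalized, values under the common 1st percentile (0.0813, the floor) were raised to it, and logs to base 2 followed. limma 3.58.1 in R 4.3.3 fitted a term for each pair and a CM effect for each time, with 14 residual degrees of freedom and 6.26 prior ones. Moderated two-sided tests were used, with Benjamini-Hochberg adjustment over 13824 probes and a threshold of 0.05. Plots used matplotlib 3.10.9 in Python 3.11.15. The steps were tested on simulated data.

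The labels pair the cultures. In the values, paired CM and NCM arrays deviated together from their groups, with a correlation above 0.1 in 21 of 21 pairs. Gene names come from the array annotation, matched to RefSeq genes for 7322 of 7336 probes. A gene stands by its probe with the highest mean. Named were probes past the threshold, the 15 genes with the smallest unadjusted p among those higher and the 15 among those lower in 3 of 3 pairs, members of 37 lists by p or size, and 21 fixed genes. Second probes and the genes named for having 3 of 3 pairs in 1 direction lie outside that rule and were picked after seeing their values. The members and lists were chosen with earlier results of these data known. At 16 h 8 probes had the same value as another probe on each of the 6 arrays, and they were kept. Alternatives were no block, the values as deposited, median centring, a floor at the 10th percentile, leaving out the dimmest 25% or 50% of probes, the 16 h arrays alone, an intensity trend with robust spread, the mean of a gene's probes, neighbour centring on 36 assumed grids of 16 by 24 places, and each replicate left out. Markers were summed on the linear scale. Motifs were searched in RefSeq promoter windows. Nothing was left out of the fit.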

Additional observations from a re-analysis of the deposited data

How the results depend on the processing

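For CM against NCM at 16 h, 1 probe was called, CFB, and the count was 0 with no replicate block, on the values as deposited, with median centring and with the arrays of the tested times alone, which leave 2 residual degrees of freedom. It was 2 with a floor at the 10th percentile and without the dimmest 25% of probes (CFB and NDUFB7), 3 with an intensity trend and robust spread (CFB, NDUFB7 and TMSB10), 5 with neighbour centring and 7 without the dimmest 50% of probes. Leaving out 1 replicate gave 0 to 3 calls, with CFB kept without replicate 1 (change 1.82) and lost without replicate 2 (1.30) or 3 (1.29). At T0 leaving out 1 replicate gave 0 to 1 calls, and every other setting gave 0. The differences from T0 and from 6 h had 0 calls under all 13 alternatives, and median centring gave a median over all probes of -0.11 for CM against NCM at 16 h minus 6 h. The pairing was as the labels give it, and without the pairs as a block no gene passed. The changes themselves stay the same without the block by construction, since each pair has 1 CM and 1 NCM array. CFB passed in 6 of 13 alternatives, NDUFB7 in 5, ORM1 in 3, TMSB10 in 2 and IRAK2 in 1. Signs turned for genes near 0 and also for genes with larger changes. Among the latter, the main fit had GBP1 at 0.50, DECR1 at 0.32, AFP at -0.31 and TTR at -0.30. On the values as deposited ALB had 0.0085, DECR1 -0.023 and NFKBIA -0.29. With median centring AHSG had 0.046, ALB 0.093, FGA 0.049 and NFKBIA -0.21. With a gene's probes averaged AFP had 0.023, C3 0.32, CRP 0.23, FGA 0.13, GBP1 -0.11, TF 0.084 and TTR 0.062. With neighbour centring AHSG had 0.0043, ALB 0.27, CRP 0.062, FGA 0.071, NFKBIA -0.12, NQO1 0.0025 and TTR 0.072. Leaving out 1 replicate gave -0.22 to 0.041 for AHSG, -0.092 to 0.047 for FGA, -0.14 to 0.15 for NFKBIA and -0.73 to 0.16 for TF, the positive values of AHSG and FGA and the negative one of NFKBIA without replicate 3 and the positive one of TF without replicate 2. The cause of these moves was not tested. Of the list medians 415 values moved by less than the spread between pairs and 66 by more. With 3 pairs, a change of 1.04 with an SE of 0.17, that of NDUFB7, did not pass.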

Other observations

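Some probes that the annotation ties to several genes, and that are therefore not named here, had changes of the size of those of ORM1. Probe 1820 had 1.52, 1.08 and 0.99 in CM, against -0.19, -0.52 and 0.38 in NCM, a change of 1.31 (adjusted p = 0.103 in limma), and probe 7313 had 1.16, 1.47 and 1.43 in CM, against -0.49, 0.38 and 0.45 in NCM, a change of 1.24 (adjusted p = 0.103). On both probes every CM array lay above every NCM array, as on 2.48% of all probes, and both passed without the dimmest 50% of probes.

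Cell cycle genes, 28 of 52 measured, had 0 called in limma, 2 at an unadjusted p under 0.05 and a median of -0.05. In 3 of 3 pairs 3 genes were higher and 7 lower, against 14.6% and 12.6% of all genes. The higher ones were CDK6 at 0.63 and CCNB2, a mitotic cyclin, at 0.42, the 2 genes at an unadjusted p under 0.05, and CDKN1B at 0.28. The lower ones, none of them at an unadjusted p under 0.05, were CDC25B, CKS1B, CCNA2, CDK1, CCNB1, MCM7 and CDKN1A, with -0.22 to -0.47. With neighbour centring CCNB2 had 0.17, CCNA2 -0.04, CCNB1 -0.08 and CDKN1A 0.09. In the list of the endoplasmic reticulum and secretion, 37 of 58 measured, 0 were called in limma and 1, DNAJB9 at -0.60, had an unadjusted p under 0.05. In 3 of 3 pairs 6 genes were higher and 4 lower. XBP1, a transcription factor of the unfolded protein response, at 0.70, HERPUD1 at 0.50, DNAJB11, RPN2, COPB2 and COPA were higher, and DNAJB9, LMAN1 at -0.55, ATF6 at -0.44 and DAD1 were lower. With neighbour centring ATF6 had -0.23. SOD2 probe 2220 had 0.76, 0.08 and 0.21 in CM, against -1.93, -1.09 and -0.62 in NCM, a change of 1.56 (adjusted p = 0.378 in limma), and the brighter SOD2 probe had 0.16.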
